A study of Rattus norvegicus with 80 samples.

Results

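The genes described here are enzymes that build cholesterol, with one protein that restrains their control. The set holds 8 gene symbols, Idi1, Fdps, Hmgcs1, Sqle, Lss, Cyp51, Dhcr7 and Insig1, looked up by symbol in the annotation of the array. Hmgcs1, the enzyme that makes HMG-CoA, was not named on any probe in the annotation used here and is not analysed. The other 7 were measured, out of 15925 named genes. Sqle, Lss, Cyp51 and Dhcr7 each had 1 probe, Fdps and Idi1 had 2 and Insig1 had 4, and the probes of a gene were averaged.

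RNA came from the perfused right lungs of male Sprague-Dawley (Crl:CD[SD]) rats, an outbred laboratory strain, bought at 7 weeks of age and dosed once by intratracheal instillation. They received 1 of 3 cellulose nanofibril preparations (CNF1, CNF2 and CNF3), fine fibres made of cellulose, or multi-walled carbon nanotubes (MWCNT), rolled sheets of carbon set one inside another. Rats of each material's vehicle group received distilled water containing preservatives, and the exposed groups 2.0, 1.0 or 0.5 mg/kg, with lungs taken on days 1, 3, 7, 30 and 90. This gave 80 groups with 1 array each. The protocol named 4 rats per group and time, and the array descriptions closed with "replicate 4" for 73 arrays and "replicate 3" for 7, which leaves unsaid if the RNA came from 1 rat or from several. The array labels are followed for dose, although the treatment protocol uses mg/mL for the same 3 numbers and names 1 mg/kg.

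Cholesterol is built from acetyl-CoA through mevalonate, which is turned into 5-carbon isoprene units, joined into squalene, closed into the ring of lanosterol and trimmed to cholesterol. The genes of this pathway are known to be switched on together by SREBP2, a membrane-bound transcription factor that Insig proteins hold in the endoplasmic reticulum while sterols are plentiful. In the lung, cholesterol is a component of surfactant, the lipid film that alveolar type 2 cells secrete and that alveolar macrophages take up.

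The deposited values were log2 values centred on each probe, so they show differences between arrays and not how abundant a transcript is. The number of arrays limits the precision, and the presence of lung markers could not be checked on such values. An effect below is the mean, over the 5 days, of an exposed array minus the vehicle array of the same material and day, given in log2 units ± SE with the Benjamini-Hochberg adjusted p from limma over all 15925 genes. A gene is said to have risen or fallen where that p was under 0.05. With 1 array per group, no group had a replicate array of its own, and the SE measures how arrays scattered around the fitted effects from day to day. For each gene this scatter was pooled over all materials and doses, the 0.5 and 1.0 mg/kg arrays included. A gene therefore has the same SE in every material, which is not the day-to-day spread of that material alone. For Dhcr7 at 2.0 mg/kg the SD of the daily differences was 0.58 in CNF1 and 0.23 in MWCNT, with an SE of 0.12 in both. In whole lung, more cells of a type and more RNA per cell cannot be told apart. The 27 spike-in and negative control spots, picked by name from 91 control spots, match no rat gene. At 2.0 mg/kg they passed 0 of 108 tests (11 at an unadjusted p under 0.05, limma). Of those 11, 4 were in CNF1, 7 in CNF2 and 0 in CNF3 and MWCNT. The spots passed 74 of 108 tests at 0.5 mg/kg and 68 of 108 at 1.0 mg/kg, so the 2.0 mg/kg arrays lead the account.

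The stretch of 250 bases before the annotated gene start is shown for 5 of the measured genes, as the region where a shared control of genes that move together would be looked for. The sequences are from RefSeq on build GRCr8, 5′ to 3′ on the strand of the gene, with capitals marking matches on either strand to CCAAT (the box bound by NF-Y) or GGGCGG (the GC box bound by Sp1). Dhcr7 lies at chr1:208444184-208444433 on the plus strand, Fdps at chr2:176804817-176805066 on the minus strand, Idi1 at chr17:66547525-66547774 on the minus strand, Lss at chr20:12118231-12118480 on the minus strand and Cyp51 at chr4:30991443-30991692 on the plus strand, these being the coordinates of the stretches shown.
Idi1: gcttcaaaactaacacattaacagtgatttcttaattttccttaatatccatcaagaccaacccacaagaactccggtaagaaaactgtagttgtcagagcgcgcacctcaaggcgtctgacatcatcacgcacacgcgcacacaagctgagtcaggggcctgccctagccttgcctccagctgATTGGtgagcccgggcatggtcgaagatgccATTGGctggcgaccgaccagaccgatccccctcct
Fdps: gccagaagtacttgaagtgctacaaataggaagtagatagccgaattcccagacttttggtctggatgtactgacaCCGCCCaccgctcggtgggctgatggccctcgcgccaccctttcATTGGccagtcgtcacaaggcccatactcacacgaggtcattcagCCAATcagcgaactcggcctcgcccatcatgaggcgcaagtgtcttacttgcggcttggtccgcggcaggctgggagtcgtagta
Lss: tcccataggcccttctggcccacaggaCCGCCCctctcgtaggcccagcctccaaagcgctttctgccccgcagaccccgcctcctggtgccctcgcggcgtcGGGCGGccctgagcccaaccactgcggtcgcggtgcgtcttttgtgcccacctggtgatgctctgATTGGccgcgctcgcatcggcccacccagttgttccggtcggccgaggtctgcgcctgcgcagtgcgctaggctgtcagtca
Cyp51: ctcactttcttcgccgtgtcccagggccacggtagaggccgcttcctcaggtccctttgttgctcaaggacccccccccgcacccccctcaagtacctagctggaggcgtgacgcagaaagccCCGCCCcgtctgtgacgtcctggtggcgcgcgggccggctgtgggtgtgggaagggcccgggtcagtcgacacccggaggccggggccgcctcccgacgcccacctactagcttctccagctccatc
Dhcr7: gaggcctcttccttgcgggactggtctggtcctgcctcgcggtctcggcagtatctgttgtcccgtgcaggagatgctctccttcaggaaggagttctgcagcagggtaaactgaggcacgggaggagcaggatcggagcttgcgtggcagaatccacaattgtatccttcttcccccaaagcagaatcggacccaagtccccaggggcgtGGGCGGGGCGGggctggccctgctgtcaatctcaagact
CCAAT was found in 3 of the 5 stretches, with 2 matches each in Fdps and Idi1, and in 34% of the 33469 rat promoter stretches of the same length. GGGCGG was found in 4 of the 5, all but Idi1, against 30.5% of all, and its 2 matches in Dhcr7 overlap. Neither the sterol response letters TCACNCCAC (1.0% of all stretches) nor the E-box CACGTG (5.6%) occurred in these 5. Only this exact spelling of the sterol response letters was searched, so other spellings may be present. A match describes the letters in this window, not a site in use. Sqle is named only.

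MWCNT at 2.0 mg/kg raised 5 of the 7 genes over the 5 days, Idi1, Fdps, Sqle, Cyp51 and Dhcr7, by 1.57 to 1.64 fold, and lowered none. Over all genes 12.7% were higher by the same test. The median effect of the 7 was 0.65, against 0.01 over all genes. The 5 genes span the pathway from the isoprene units to the last reduction. They passed under each of the 13 other settings tried. Of these, taking 1 probe per gene could not change Sqle, Cyp51 and Dhcr7, which have 1 probe each. All but Insig1 were above their vehicle on 5 of 5 days, which held for 18.6% of all genes.

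The first steps belong to Idi1 and Fdps. Idi1, which converts isopentenyl diphosphate to its reactive isomer, stood at 0.68, 0.75, 0.94, 0.22 and 0.01 on days 1, 3, 7, 30 and 90 after 2.0 mg/kg of MWCNT, and at 0.22, 0.11, -0.05, -0.46 and -0.68 in the vehicles of those days. The exposed array was above its vehicle on every day, and the vehicle array stood lower on each later day while the exposed array remained above it. The effect was 0.69 ± 0.12 (adjusted p = 5.6e-05), a 1.61-fold rise. Fdps, which joins isoprene units into farnesyl diphosphate, stood at 0.40, 0.64, 0.77, 0.39 and 0.47 against 0.10, 0.02, -0.09, -0.27 and -0.30 in the vehicles. All 5 exposed arrays lay above all 5 vehicle arrays, and the effect was 0.65 ± 0.11 (adjusted p = 3.3e-05), or 1.57-fold. Both probes of Fdps (0.67 ± 0.11 and 0.63 ± 0.12) and both of Idi1 (0.73 ± 0.13 and 0.65 ± 0.14) showed the rise.

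At the squalene steps 1 of 2 genes passed. Sqle, the monooxygenase that puts oxygen on squalene and is a slow step of the pathway, stood at 0.26, 0.43, 0.82, 0.21 and 0.00 against 0.06, -0.01, -0.25, -0.52 and -0.78 in the vehicles. It was above the vehicle on all 5 days, least on day 1 and most on day 7, where the gap was 1.07. The effect was 0.65 ± 0.13 (adjusted p = 0.00038). Lss, the cyclase that closes oxidised squalene into lanosterol, stood at 0.64, 0.41, 0.01, -0.16 and -0.03 against -0.11, -0.28, -0.38, -0.41 and -0.05. Its gap was largest on days 1 and 3 and was 0.02 on day 90. Lss had an effect of 0.42 ± 0.16 (adjusted p = 0.058), which did not pass. Under 5 of the 13 other settings it did pass, among them quantile normalization, array median centring and leaving out day 90.

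Among the enzymes that turn lanosterol into cholesterol, Cyp51, the demethylase that makes the first cut, stood at 0.40, 0.60, 0.73, 0.48 and 0.03 against 0.02, -0.12, -0.04, -0.24 and -0.84 in the vehicles. Every exposed array was above every vehicle array, by a narrow margin, and the effect was 0.69 ± 0.16 (adjusted p = 0.0013). Cyp51 and Fdps were the 2 members of 7 whose groups did not overlap, where 8.21% of all genes had all exposed arrays above all vehicles. Dhcr7, the reductase of the final step to cholesterol, stood at 0.65, 0.58, 0.66, -0.01 and 0.09 against 0.09, -0.02, -0.36, -0.50 and -0.81. Its gap was at least 0.49 on each day, the effect was 0.71 ± 0.12 (adjusted p = 2.9e-05), and at 1.64-fold it had the highest mean of the 7. The 5 effects ran from 0.65 to 0.71, a spread smaller than the SE of any one of them.

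Insig1, which holds the SREBP machinery back and is itself a target of it, stood at -0.02, 0.39, 0.57, 0.16 and 0.22 after MWCNT and at 0.32, 0.29, 0.00, -0.20 and -0.02 in the vehicles. It was below the vehicle on day 1 and above it on the other 4 days. The effect was 0.18 ± 0.10 (adjusted p = 0.21) and did not pass. Of its 4 probes, 1 passed when all rat probes were tested, at 0.24 ± 0.08 (adjusted p = 0.038), and the other 3 lay between 0.14 and 0.20.

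**Figure D1:**
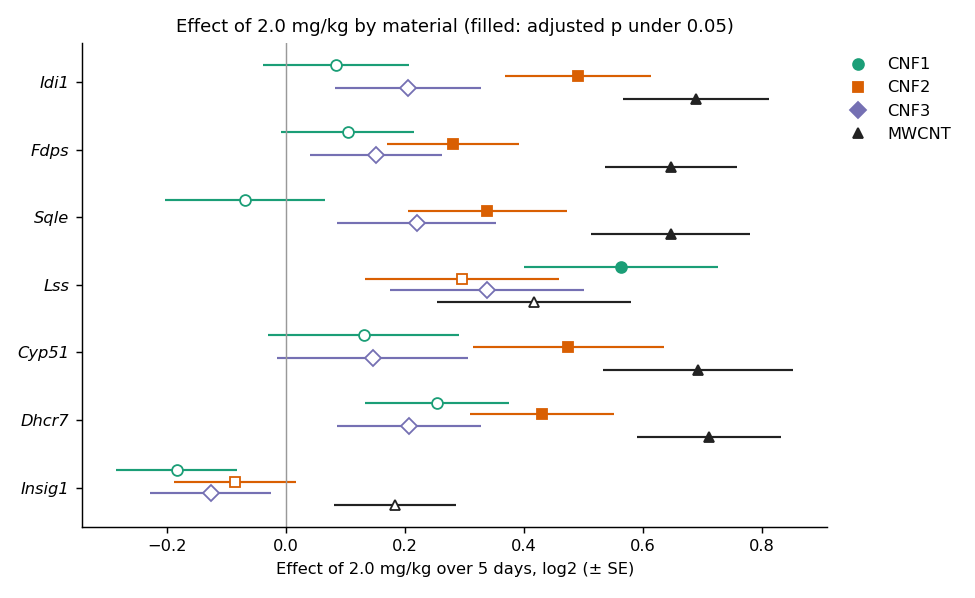
Effect of 2.0 mg/kg over 5 days (horizontal axis, log2, bars ± SE) for the 7 genes in each material, with filled points where the adjusted p was under 0.05. MWCNT points for Idi1, Fdps, Sqle, Cyp51 and Dhcr7 sit between 0.65 and 0.71, and Insig1 has the lowest point in each material.

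Of the cellulose materials, CNF2 raised 5 of the 7 genes at 2.0 mg/kg, Idi1, Fdps, Sqle, Cyp51 and Dhcr7, with means of 0.28 to 0.49. Over all genes 15.6% were higher. Fdps, Sqle, Cyp51 and Dhcr7 were above the vehicle on 5 of 5 days, as were 17.5% of all genes. Minus its own vehicle, Idi1 stood at 0.62, 0.72, 0.64, -0.04 and 0.51 on days 1, 3, 7, 30 and 90, an effect of 0.49 ± 0.12 (adjusted p = 0.002). Cyp51 stood at 0.30, 0.61, 0.80, 0.10 and 0.58, an effect of 0.48 ± 0.16 (adjusted p = 0.019). For both, day 30 was the day with least difference. Dhcr7 stood at 0.16, 0.76, 0.76, 0.23 and 0.25 and was above its vehicle every day, an effect of 0.43 ± 0.12 (adjusted p = 0.0052). Sqle at 0.34 ± 0.13 (adjusted p = 0.047) and Fdps at 0.28 ± 0.11 (adjusted p = 0.047) passed narrowly. When all rat probes were tested, both Idi1 probes and 1 Fdps probe passed. The other Fdps probe (0.23 ± 0.12, adjusted p = 0.15) and the Sqle probe (adjusted p = 0.056) did not. Lss at 0.30 ± 0.16 (adjusted p = 0.17) and Insig1 at -0.09 ± 0.10 (adjusted p = 0.54) did not pass. These calls depended on single days, as 1 member passed without day 7, 2 without day 3 and 3 without day 30, and on scaling, as 1 passed after quantile normalization. On these arrays the median difference of the 27 control spots was 0.40, the largest of the 4 materials at this dose. With 3 factors of these spots in the fit the 5 genes passed as well, with effects of 0.30 to 0.47.

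CNF1 raised Lss alone at 2.0 mg/kg, where 21.8% of all genes were higher. Lss differed from the vehicle by 0.88, 1.15, 0.77, 0.03 and 0.00 on days 1, 3, 7, 30 and 90, high on the first 3 days and at the vehicle on the last 2, and the effect was 0.56 ± 0.16 (adjusted p = 0.0042). Without day 1 it no longer passed (0.49 ± 0.20, adjusted p = 0.051). Dhcr7 differed by 0.15, 1.08, 0.57, -0.23 and -0.30, which gave an effect of 0.26 ± 0.12 (adjusted p = 0.087). Without day 30, or without day 90, Dhcr7 passed as well. Sqle, at -0.07, 0.33, 0.10, -0.32 and -0.38, was below its vehicle on 3 of the 5 days and had an effect of -0.07 ± 0.13 (adjusted p = 0.77). Idi1, Fdps, Cyp51 and Insig1 had effects of 0.09 ± 0.12, 0.10 ± 0.11, 0.13 ± 0.16 and -0.18 ± 0.10, none of which passed. The 2 probes of Idi1 differed in sign (0.26 ± 0.13 and -0.09 ± 0.14). Of the 4 Insig1 probes, 1 passed as a fall when all rat probes were tested (-0.30 ± 0.12, adjusted p = 0.044).

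CNF3 moved 0 of the 7 genes past the threshold at 2.0 mg/kg by limma (1 at an unadjusted p under 0.05, Lss), where 19.7% of all genes changed. Lss differed by 0.34, 0.78, 0.45, 0.28 and -0.16 over the days and had an effect of 0.34 ± 0.16 (adjusted p = 0.14). The effects of the other genes ran from -0.13 for Insig1 to 0.22 for Sqle. On day 3 all 7 were above their vehicle, with a median of 0.49.

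Differences between materials were tested for all 6 pairs at 2.0 mg/kg. MWCNT exceeded CNF1 for Sqle, by 0.72 ± 0.19 (adjusted p = 0.037), where 1.63% of all genes differed. This call was lost in 10 of 15 other fits, all with the same direction. Among the 10 were leaving out day 1, 7, 30 or 90, where the adjusted p was 0.058, 0.238, 0.249 and 0.051 by limma. The 10 also include early days alone (0.46), late days alone (1.10) and the difference of the late minus early effects (0.65). Those fits ask other questions than the difference over 5 days, so they do not bear on its call. Idi1 at 0.61 ± 0.17 (adjusted p = 0.056) and Fdps at 0.54 ± 0.16 (adjusted p = 0.057) came close. Without day 3, 4 members passed in this pair, and the share of all genes under that fit was not counted. Dhcr7, Cyp51 and Insig1 had differences of 0.46 ± 0.17, 0.56 ± 0.23 and 0.37 ± 0.15, and Lss went the other way at -0.15 ± 0.23.

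MWCNT against CNF3 gave 0 calls by limma (6 at an unadjusted p under 0.05, with 0.484% of all genes called). Fdps was highest in rank there, at 0.50 ± 0.16 (adjusted p = 0.19), with 0.18 to 0.81 as the range of 2 SE either side. MWCNT against CNF2 also gave 0 (1 unadjusted, with 0.107% of all genes called), and the range for Idi1 was -0.15 to 0.55 and for Cyp51 -0.24 to 0.67. Between the cellulose materials the limma tests gave 0 calls in each pair, with 2 unadjusted for CNF2 minus CNF1 and 0 for the other 2 pairs. The corresponding shares over all genes were 0.207% for CNF2 minus CNF1, 0.151% for CNF3 minus CNF2 and 0.00% for CNF3 minus CNF1. The 2 were Idi1, at 0.41 ± 0.17 (adjusted p = 0.68), and Sqle, at 0.41 ± 0.19 (adjusted p = 0.75). For Dhcr7 the range of 2 SE either side was -0.17 to 0.52 for CNF2 minus CNF1 and -0.39 to 0.29 for CNF3 minus CNF1.

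**Figure D2:**
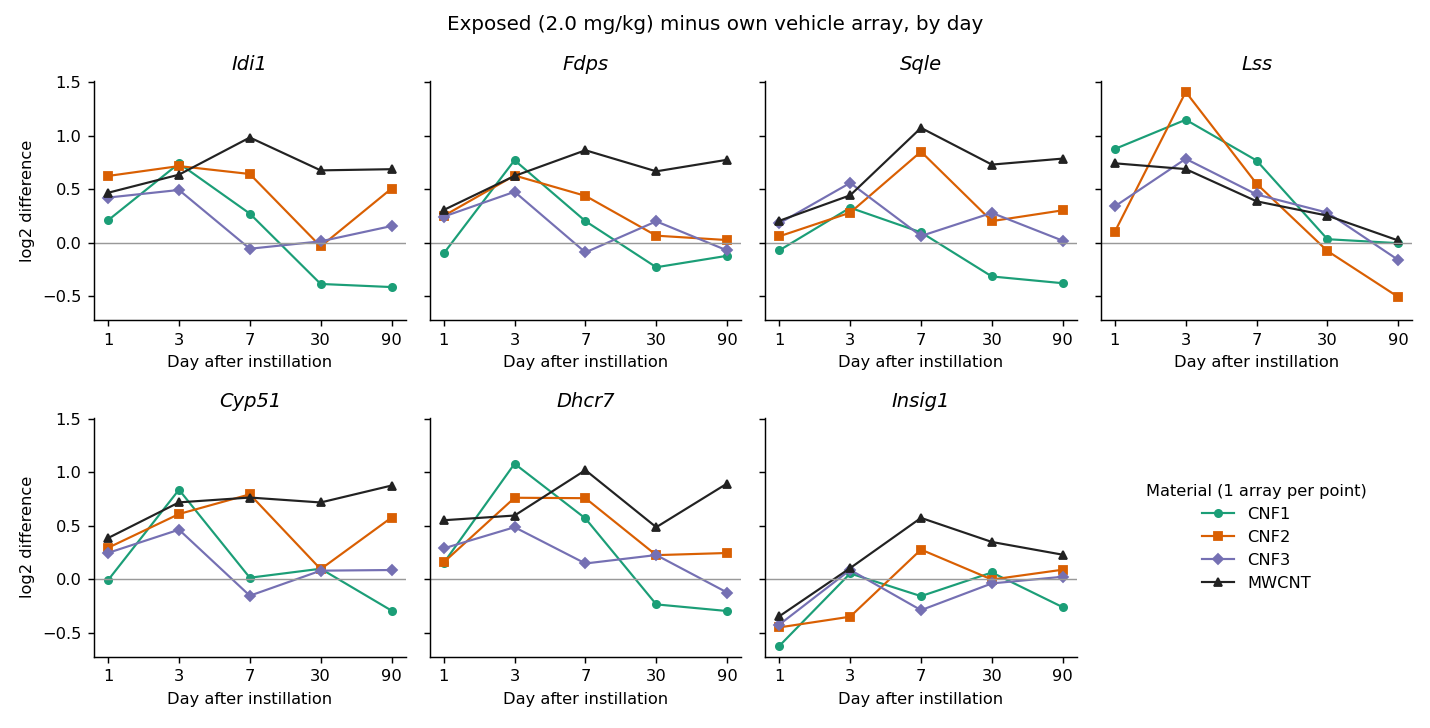
Log2 difference between the 2.0 mg/kg array and the vehicle array of its material (vertical axis) on each day (horizontal axis, not to scale) for the 7 genes, 1 array per point. On days 30 and 90 the MWCNT line lies highest for Idi1, Fdps, Sqle, Cyp51, Dhcr7 and Insig1, and for Lss all 4 lines come down from day 3 to day 90.

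The 3 early days (1, 3 and 7) and the 2 late days (30 and 90) were also fitted as separate effects of 2.0 mg/kg. With MWCNT, 6 members had risen early, where 8.06% of all genes had, and 5 late, where 7.06% had. The late effects were 0.68 ± 0.16 (adjusted p = 0.0039) for Idi1, 0.72 ± 0.16 (adjusted p = 0.0024) for Fdps, 0.76 ± 0.19 (adjusted p = 0.0066) for Sqle, 0.80 ± 0.23 (adjusted p = 0.021) for Cyp51 and 0.69 ± 0.16 (adjusted p = 0.0034) for Dhcr7. Lss was the member that had risen early, by 0.61 ± 0.16, but did not pass late. Late minus early gave 0 calls in MWCNT by limma (0 at an unadjusted p under 0.05, with 0.0565% of all genes called), and the range of 2 SE either side was -0.44 to 0.38 for Dhcr7 and -0.30 to 0.67 for Sqle.

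In CNF1 3 genes rose early and fell from early to late. Dhcr7, Idi1 and Lss had risen early, by 0.60 ± 0.13 (adjusted p = 0.0002), 0.41 ± 0.13 (adjusted p = 0.0088) and 0.93 ± 0.16 (adjusted p = 7.2e-06), where 24.2% of all genes were higher. Late, 0 passed by limma (1 unadjusted), where 1.32% of all genes did, and Idi1 stood at -0.40 ± 0.16. The change itself passed for all 3, at -0.87 ± 0.21 (adjusted p = 0.0082) for Dhcr7, -0.81 ± 0.20 (adjusted p = 0.012) for Idi1 and -0.92 ± 0.25 (adjusted p = 0.019) for Lss, where 5.29% of all genes fell. None of the 3 passed when day 30 or day 90 was left out, and Lss alone passed when day 3 was. Without day 30 the changes were -0.90, -0.82 and -0.94, without day 90 they were -0.83, -0.79 and -0.90, and without day 3 they were -0.63, -0.64 and -0.81. The 3 calls were also lost with quantile normalization, with CNF1 alone in the fit and with the 2 lower doses dropped.

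For CNF2, 6 members had risen early, all but Insig1, where 18.9% of all genes were higher. Late, 0 passed by limma (0 unadjusted), where 2.56% of all genes did. The change passed for Lss, -0.98 ± 0.25 (adjusted p = 0.036), where 0.892% of all genes fell. That Lss call was lost without day 3 (-0.62), without day 30 (-1.20) and without day 90 (-0.77). For CNF3, Lss had risen early by 0.53 ± 0.16 (adjusted p = 0.017), where 10.2% of all genes were higher, and no change between the periods passed by limma (0 unadjusted, with 0.0816% of all genes called). For CNF3 the late effects gave 0 calls (0 unadjusted, limma), where 3.92% of all genes passed. On late days alone, a comparison chosen after seeing the data, Idi1 differed between MWCNT and CNF1 by 1.08 ± 0.22 (adjusted p = 0.021), where 0.195% of all genes differed. The difference between the 2 materials in the change from early to late passed for 0 of 7 by limma (3 unadjusted, with 0.0314% of all genes called), and was largest for Dhcr7, at 0.83 ± 0.29 (adjusted p = 0.24).

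At the lower doses the control spots moved as well, and the part of that shift in the gene values was not tested beyond the alternative with 3 factors of these spots. At 0.5 mg/kg, 10 of 28 tests (7 genes in 4 materials) passed, all as rises. By material, 1, 3, 1 and 5 of the 7 passed in CNF1, CNF2, CNF3 and MWCNT. Over all genes 36.1%, 37.7%, 23.8% and 30.4% were higher in these materials. With the 3 factors in the fit, 4 of the 28 passed, and the share of all genes under that fit was not counted. Lss rose with every material at this dose, by 0.81 ± 0.16 in CNF1, 0.70 ± 0.16 in CNF2, 0.75 ± 0.16 in CNF3 and 0.41 ± 0.16 in MWCNT. Its daily differences in CNF1 were 1.23, 0.99, 0.85, 0.31 and 0.68, above the vehicle on every day and most on day 1. Idi1, whose rise at 2.0 mg/kg with MWCNT was among the clearest, stood at -0.02 ± 0.12 at 0.5 mg/kg, with daily differences of 0.03, 0.01, -0.17, 0.04 and 0.01. Between those doses it reached 0.49 ± 0.12 (adjusted p = 0.0057) at 1.0 mg/kg.

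At 1.0 mg/kg 8 of 28 tests passed, 4 of them in MWCNT and 3 in CNF2, where 8.49% and 27.6% of all genes were higher. The eighth was Lss in CNF1, at 0.51 ± 0.16 (adjusted p = 0.012), where 20.6% were higher, and CNF3 had 0 (1 unadjusted, limma, with 24.8% of all genes called). With 3 factors of the control spots, 0 of the 28 passed, again without a count over all genes. In MWCNT the effects at the low, middle and high dose were 0.39 ± 0.12, 0.59 ± 0.12 and 0.71 ± 0.12 for Dhcr7, and 0.42 ± 0.13, 0.56 ± 0.13 and 0.65 ± 0.13 for Sqle. Both means were higher at each higher dose, in steps of at most 2 SE. Fdps went through 0.35 ± 0.11, 0.50 ± 0.11 and 0.65 ± 0.11.

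A line through the 4 dose levels was also fitted on each day. With 7 genes, 4 materials and 5 days, 4 of 140 slopes passed (32 at an unadjusted p under 0.05). In CNF1 on day 3, Dhcr7 rose by 0.50 ± 0.12 (adjusted p = 0.0012) and Fdps by 0.31 ± 0.12 (adjusted p = 0.047) in log2 units per mg/kg, where 15.4% of all genes rose. Insig1 fell with dose on day 1 in CNF1, at -0.32 ± 0.09 (adjusted p = 0.026), where 3.61% fell. Dhcr7 rose with dose on day 90 in MWCNT, at 0.44 ± 0.12 (adjusted p = 0.03), where 2.07% rose. On day 7 in MWCNT 0 of 7 slopes passed by limma (6 at an unadjusted p under 0.05), where 0.157% of all genes were called. There Dhcr7 stood at 0.51 ± 0.12 (adjusted p = 0.059) and Idi1 at 0.57 ± 0.15 (adjusted p = 0.1). P-values were adjusted within each material and day, so a pass depends on how many genes moved in that set.

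**Figure D3:**
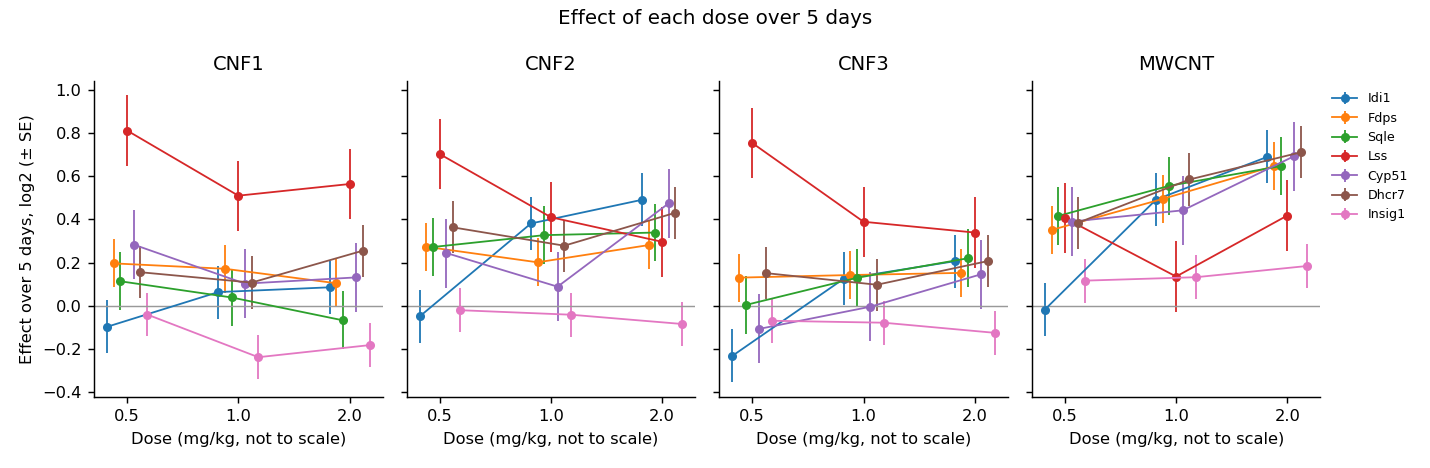
Effect over 5 days (vertical axis, log2, bars ± SE) at each dose (horizontal axis, not to scale) in 4 panels, 1 per material, with 1 line per gene. In MWCNT the lines of Dhcr7, Fdps, Sqle, Cyp51 and Idi1 climb from 0.5 to 2.0 mg/kg, whereas Lss is highest at 0.5 mg/kg in CNF1, CNF2 and CNF3.

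Some of these genes also differed between days in the vehicle arrays, without particles. Dhcr7 averaged 0.15 ± 0.06 on day 1, -0.21 ± 0.14 on day 7 and -0.66 ± 0.27 on day 90 (SD, 4 vehicles). Sqle went from 0.08 ± 0.05 on day 1 to -0.56 ± 0.32 on day 90, and Idi1 from 0.18 ± 0.08 to -0.51 ± 0.28. Fdps went from 0.05 ± 0.05 to -0.27 ± 0.12. These 4 differed between days by the limma F test (adjusted p = 0.00048 for Dhcr7, 0.0018 for Idi1, 0.006 for Sqle and 0.0074 for Fdps), where 11.9% of all genes did. On day 90 the vehicles of Dhcr7 lay at -0.28, -0.91, -0.64 and -0.81 for CNF1, CNF2, CNF3 and MWCNT, and those of Sqle at -0.11, -0.79, -0.55 and -0.78. The CNF1 vehicle was the highest of the 4 for both genes. The number of members passing was 1 without the CNF2 vehicle, 2 without that of CNF3, 2 without that of MWCNT and 4 without that of CNF1, a check added after seeing the data. Cyp51, Lss and Insig1 did not pass (adjusted p = 0.25, 0.37 and 0.34).

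Between the 4 vehicles no member differed by the limma F test (0 of 7, with 2 at an unadjusted p under 0.05, Idi1 and Sqle, and 6.44% of all genes called). Averaged over days, the MWCNT vehicle minus the CNF1 vehicle was -0.23 for Sqle and -0.17 for Idi1. A fit with one common control in place of the 4 vehicles gave 5 members called for MWCNT against CNF1 and a Sqle difference of 0.48, in place of 1 member and 0.72. The share of all genes called in that fit was not counted. The MWCNT array at 2.0 mg/kg on day 90 stood at 0.00 for Sqle, 0.01 for Idi1 and 0.09 for Dhcr7, above the 4 vehicle arrays of that day for all 3 genes.

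**Figure D4:**
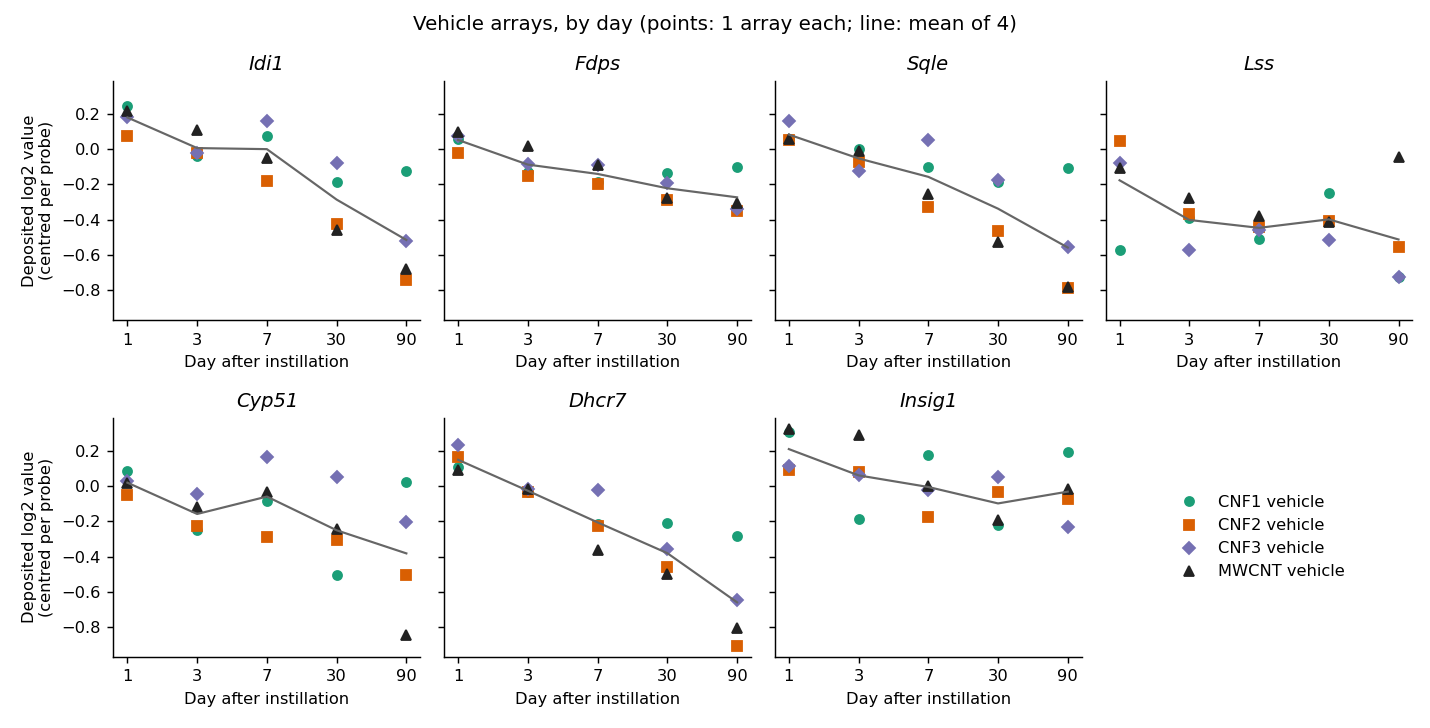
Deposited log2 value (vertical axis, centred per probe) of the 7 genes in the 20 vehicle arrays by day (horizontal axis, not to scale), 1 point per array and a line through the mean of the 4 vehicles. The means of Dhcr7, Sqle, Idi1, Fdps, Cyp51 and Lss are lowest on day 90, where the 4 vehicles also lie farthest apart for these genes.

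The members resembled each other to different degrees. Over the 20 differences at 2.0 mg/kg (4 materials, 5 days), the correlations among Sqle, Dhcr7, Fdps, Idi1 and Cyp51 ran from 0.80 to 0.91. Those 5 correlated with Insig1 at 0.36 to 0.72 and with Lss at 0.14 to 0.55, and Lss and Insig1 with each other at -0.25. Values of one array share its hybridization and scaling, and a difference shares its vehicle, so these are descriptions. Over the 20 vehicle arrays the 5 genes correlated at 0.64 to 0.97.

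Of the other genes of the pathway, 10 of 13 measured rose with MWCNT at 2.0 mg/kg and 0 fell, with a median of 0.34, where 12.7% of all genes rose. Mvd, which makes isopentenyl diphosphate just before Idi1, rose by 0.88 ± 0.17 (adjusted p = 0.00018), and Tm7sf2, a sterol reductase that acts after Cyp51, by 0.87 ± 0.12 (adjusted p = 4.0e-07). Fdft1, which makes squalene from the product of Fdps, rose by 0.34 ± 0.12 (adjusted p = 0.029). Msmo1 and Nsdhl, which remove methyl groups after Cyp51, rose by 0.39 ± 0.08 (adjusted p = 0.00034) and 0.38 ± 0.09 (adjusted p = 0.0011). In CNF1, CNF2 and CNF3, 4, 5 and 2 of the 13 rose and 0 fell. Mvd and Ebp, a sterol isomerase, rose with every material. Mvd stood at 1.09 ± 0.17 (adjusted p = 1.8e-06) in CNF1, 0.92 ± 0.17 (adjusted p = 6.0e-05) in CNF2 and 0.64 ± 0.17 (adjusted p = 0.0059) in CNF3.

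**Figure D5:**
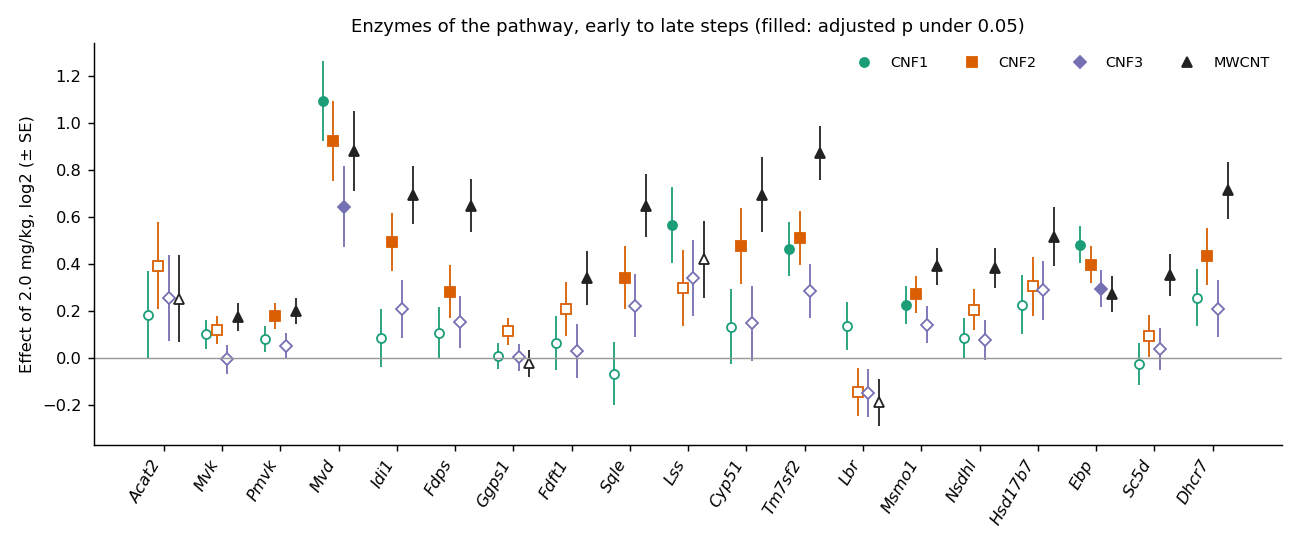
Effect of 2.0 mg/kg over 5 days (vertical axis, log2, bars ± SE) for 19 measured enzymes in pathway order, 1 marker per material and filled where the adjusted p was under 0.05. Of the MWCNT markers 15 are filled, Mvd and Ebp are filled in all 4 materials, and Lss is filled in CNF1 only.

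Genes around the pathway were counted in the same way. Over all genes 21.8%, 15.6%, 9.75% and 12.7% rose with CNF1, CNF2, CNF3 and MWCNT at 2.0 mg/kg, and 19.8%, 15.7%, 9.99% and 9.16% fell, and the counts of the small lists that follow are to be read against these shares. Of 6 genes that control SREBP, 1 rose and 0 fell with MWCNT, Scap, the escort of SREBP, at 0.23 ± 0.08 (adjusted p = 0.025). In CNF1 Scap rose and 3 of the 6 fell, among them Mbtps1, the protease that makes the first cut in SREBP, at -0.66 ± 0.09 (adjusted p = 6.0e-08), and Insig2 at -0.39 ± 0.10 (adjusted p = 0.0016). In CNF2 0 of the 6 rose and 2 fell, Mbtps1 and Insig2, and in CNF3 0 rose and 1 fell, Mbtps1. Of 10 genes of fatty acid synthesis 2 rose and 0 fell with MWCNT, Me1, which supplies NADPH, at 0.40 ± 0.06 (adjusted p = 6.1e-06), and Fasn, the fatty acid synthase, at 0.44 ± 0.11 (adjusted p = 0.0029). Me1 was the 1 gene of the list that rose in each cellulose material (0.38, 0.19 and 0.25), where 3, 1 and 2 of the 10 fell. Fads1, a fatty acid desaturase, fell with CNF1, CNF2 and CNF3 (-0.54, -0.29 and -0.34) and stood at 0.08 in MWCNT. The median effects of the fatty acid list were -0.17, -0.05, -0.07 and 0.06 in CNF1, CNF2, CNF3 and MWCNT, against 0.00, 0.04, 0.03 and 0.01 over all genes.

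Among genes of sterol uptake and transport 2, 2, 1 and 3 of 6 rose with CNF1, CNF2, CNF3 and MWCNT and 1 fell with each, and of 5 genes of cholesterol esters 3 rose with each and 0, 0, 0 and 1 fell. Of 4 oxysterol genes 1, 2, 1 and 1 rose and 1 fell with each, and of 9 genes of sterol efflux 2, 1, 1 and 1 rose and 2, 0, 1 and 0 fell. Ch25h, which makes 25-hydroxycholesterol, rose by 1.14, 0.99, 0.92 and 0.86 in CNF1, CNF2, CNF3 and MWCNT. Soat1, which esterifies cholesterol, rose by 0.81, 0.55, 0.60 and 0.53, and Npc2, which carries cholesterol out of lysosomes, by 0.79, 0.72, 0.67 and 0.82. Cyp27a1, which makes 27-hydroxycholesterol, and Vldlr, a lipoprotein receptor, fell with all 4, with effects of -0.32 ± 0.11 and -0.30 ± 0.11 in MWCNT. For Cyp27a1 and Vldlr the CNF1 effects were -0.72 ± 0.11 and -0.71 ± 0.11, and these differences between materials were not tested.

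Cell markers moved on the same arrays. Of 10 type 2 cell markers 5 rose with MWCNT, among them Sftpa1, a surfactant protein, at 0.54 ± 0.09 (adjusted p = 2.4e-05) and Napsa, a protease that processes surfactant protein, at 0.45 ± 0.08 (adjusted p = 2.5e-05). The mean of the type 2 list was -0.09 to 0.09 in the 5 vehicles and 0.04 to 0.48 in the exposed arrays, above its vehicle on 5 of 5 days. In CNF1, CNF2 and CNF3 3, 1 and 0 of the 10 rose and 0, 2 and 0 fell. The list mean of the exposed arrays ran from -0.05 to 0.32, -0.21 to 0.11 and -0.15 to 0.05. In their vehicles it ran from -0.18 to -0.02, -0.1 to 0.01 and -0.22 to -0.12. The exposed mean was above its vehicle on 5, 3 and 5 of the 5 days. Of 9 macrophage markers 5 rose and 0 fell with MWCNT, Cd68 by 1.29 ± 0.21. In CNF1, CNF2 and CNF3 4, 4 and 3 rose and 2, 0 and 0 fell, where Cd68 stood at 1.64, 1.70 and 1.45. The macrophage list mean was -0.70 to -0.24 in the MWCNT vehicles and -0.44 to 0.91 in the exposed arrays. In each of the 4 materials this mean was above its vehicle on 5 of 5 days. Of 7 neutrophil markers 4 rose with MWCNT, Cd177 by 3.51 ± 0.32, and 0 rose in each cellulose material, with 1 fall in CNF1. Cell cycle genes rose with all 4 materials (8 or 9 of 10), and markers of type 1 cells fell (7 of 7 in CNF1, CNF2 and MWCNT, 4 of 7 in CNF3). With MWCNT 5 of 8 endothelial, 3 of 6 fibroblast, 1 of 6 ciliated and 0 of 7 B and T cell markers fell, and none of these lists had a rise with MWCNT. The last 2 counts are near the 9.16% of all genes that fell. The part of these cells in the synthesis genes was not tested.

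The 10 genes outside the set whose 20 differences at 2.0 mg/kg followed the mean of the 7 members most closely had correlations of 0.86 to 0.92. They were Fdft1 (0.92), Aacs (0.91), Txndc5 (0.89), Tm7sf2 (0.89), Stard4 (0.89), Nsdhl (0.88), Entpd3 (0.87), Slc25a10 (0.87), Slpi-ps1 (0.86) and Fbp2 (0.86). Identifiers without a gene name, such as LOC numbers, were passed over in this ranking. Fdft1, Tm7sf2 and Nsdhl are enzymes of the same pathway, Aacs activates acetoacetate and Stard4 carries cholesterol between membranes. The choice used these same differences, in which the members are highest with MWCNT, so the effects of the 10 are a description. With MWCNT they ran from 0.34 (Fdft1, Stard4) to 1.09 (Entpd3), with Aacs at 0.56 ± 0.10. Entpd3 stood at 0.54 ± 0.13 in CNF1, 0.41 ± 0.13 in CNF2 and 0.12 ± 0.13 in CNF3, and Tm7sf2 at 0.46, 0.51 and 0.28.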

How the data were processed

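RNA from 80 lung samples was hybridised to 1-colour rat arrays, and the submitters' processing notes name Agilent Feature Extraction 12.0.3.1. The deposited values of the authors were log2 values centred on each probe across arrays, as the values themselves show. The log base was not stated and was taken as 2, and the scale before centring, background correction and normalization are not given in the sources used here. Of 41012 rat probes, 20932 carried 1 current gene symbol and 20080 none, through the platform's annotation and RefSeq, and probes of a gene were averaged to 15925 genes.

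limma 3.58.1 in R 4.3.3 fitted all arrays with a term for each of 20 combinations of material and day and an effect for each of 3 doses per material, then separate early and late effects, dose slopes per day, and day and material effects over the vehicles. P-values were adjusted by Benjamini-Hochberg over all genes, with a threshold of 0.05. Residual degrees of freedom come from day-to-day scatter, as each group held 1 array, which may be technical in part. On simulated arrays with 100 genes changed 1.5-fold and 100 changed 2-fold, the 2.0 mg/kg effect of MWCNT was called for 69 and 89 of them, with 7 false calls among the unchanged genes. For MWCNT minus CNF1 it was 46 and 73, and for late minus early in CNF1 19 and 53. For the slope of MWCNT on day 90 it was 12 and 52, and for the vehicle days 51 and 79. Changes of 1.5-fold from early to late or in slope were therefore mostly missed. The simulated noise was independent between genes and arrays, without shifts shared across an array. The simulated false calls therefore do not measure those on the real arrays.

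The members and gene lists were chosen with earlier results of these data known. Named genes are all members, in each other list up to 4 with the smallest p in MWCNT and up to 2 in each other material at 2.0 mg/kg, and the 10 genes most correlated with the members' mean difference. For these 10, identifiers without a gene name were passed over. Promoter stretches were matched by symbol for 5 members. Python 3.11.15 with pandas 2.3.3 and matplotlib 3.10.9 made the tables and plots.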

Additional observations from a re-analysis of the deposited data

Results flagged for a closer look

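Of the differences between materials over 5 days at 2.0 mg/kg, 1 passed a test of the difference itself, that of Sqle between MWCNT and CNF1, at 0.72 on the log2 scale. On days 30 and 90 alone, a comparison added after seeing the data, Idi1 differed between the same materials by 1.08. Between early and late days the effect of CNF1 changed by -0.87 for Dhcr7, by -0.81 for Idi1 and by -0.92 for Lss. The effect of CNF2 changed by -0.98 for Lss. Each of these lost its call under at least 1 other setting or was itself added later, and no explanation was tested.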

How the results depend on the processing

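Fits were repeated under other settings, of which the early-days, late-days and difference-of-changes comparisons, the changes from early to late without 1 day and the fits without 1 vehicle were added after seeing the data. Of the counts of members called, 142 lay within 1.5 times the reported count and 58 did not. Of the member values 923 kept their call or lack of one, 34 gained a call, 58 lost one and 0 changed direction with a call. Values without a call that changed sign are among the 923. For Sqle in CNF1 at 2.0 mg/kg, for example, the effect ran from -0.167 to 0.069 over the settings. The 5 members that rose with MWCNT passed in all 13 settings, with an adjusted p of at most 0.017. Leaving out 1 day gave 0 to 2 members for CNF1, 1 to 6 for CNF2, 0 to 1 for CNF3 and 5 to 6 for MWCNT, 5 to 12 tests at 0.5 mg/kg and 4 to 11 at 1.0 mg/kg, 0 to 4 for MWCNT minus CNF1, and 0 to 4 and 0 to 1 for the changes from early to late in CNF1 and CNF2. Leaving out 1 vehicle gave 1 to 4 members between days. Quantile normalization gave 1 member for CNF2, 1 for CNF3, 6 tests at 0.5 mg/kg, 5 at 1.0 mg/kg, and 0 for MWCNT minus CNF1, for the changes in CNF1 and CNF2 and for the slopes. Array median centring gave 3 for CNF2, 4 tests at 0.5 mg/kg, 0 for MWCNT minus CNF1 and 9 slopes. With 3 factors of the control spots there were 4 tests at 0.5 mg/kg, 0 at 1.0 mg/kg, 3 members for MWCNT minus CNF1, 0 for the change in CNF2 and 9 slopes. Without the 0.5 and 1.0 mg/kg arrays there were 2 for CNF2 and 0 for MWCNT minus CNF1 and for the changes in CNF1 and CNF2, with fewer arrays in the fit. A common control of the 4 vehicles gave 2 for CNF1, 4 for CNF3, 5 for MWCNT minus CNF1, and 2 each for MWCNT minus CNF2 and minus CNF3. With each material alone there were 2 for CNF2, 1 for CNF3 and 0 for the changes in CNF1 and CNF2, and dose as a rank gave 7 slopes. Days 1, 3 and 7 alone gave 0 for MWCNT minus CNF1, as did the difference of the late minus early effects. Taking the probe with the largest SD, or the trend and robust options of limma, moved no count past 1.5 times. For Sqle, Lss, Cyp51 and Dhcr7, with 1 probe each, the choice of probe could not change the values. For other moves the cause was not tested. No shares over all genes stand beside these counts, so a move may not be particular to the members. No paired analysis was possible because each group held 1 array, so replicate numbers could not serve as a block, while exposed and vehicle arrays are already matched by material and day in the reported fit. With 1 array per group, small effects are limited by the day-to-day scatter, where the median SE over all genes was 0.117 for an effect and 0.166 for a difference between materials. Lung is a mixture of cells, and centred values give no detection or level.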
